A study of Mus musculus with 4 samples.

Results

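Translation initiation and elongation factor genes were examined in 4 RNA-seq libraries of mouse regulatory T cells. The set holds the protein-coding genes whose symbols begin with Eif1 to Eif6 or with Eef1 or Eef2, without the genes of the third eIF2 subunit and without the eIF2 alpha kinases. By this rule on names, which used no measured value, 61 of the 21764 protein-coding genes in the deposited tables were members.

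The cells were primary cells of strain C57BL/6NJ, labelled as regulatory T cells, a CD4+ lineage that keeps immune responses in check. All 4 libraries belong to 1 group, numbered as biological replicates 1 to 4, and there is no treated or control arm. The labels give 1 donor identifier for all of them, do not record sex or age, and point to a CD4+ T cell differentiation protocol. They name total RNA-seq as the assay but link a library protocol named for polyA+ RNA, and the headers of the tables name their outputs with activated and 24h. Nothing says whether the libraries came from separate animals or cultures, so a p-value here speaks only of the spread between these samples, which may be technical.

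Initiation factors bring the initiator tRNA, the small ribosomal subunit and the capped end of an mRNA together and find the start codon, after which elongation factors deliver aminoacyl-tRNAs and move the ribosome along the message. eIF4F recognises the cap, eIF3 bridges the mRNA and the small subunit, eIF2 carries the initiator tRNA, and eIF2B recharges eIF2 with GTP. T cells that leave the resting state raise protein synthesis, and cap recognition, eIF2 recharging and eEF2 are known points of control.

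Totals of fragments assigned to genes were 38590127, 44357436, 48312918 and 93035969 in replicates 1 to 4, and the members took 1350024, 1635173, 1758776 and 3471392 of these. Levels are given as TPM, a scale that divides each count by gene length and then by the library's sum, taken over protein-coding genes only, because these genes held 88.2% of all-feature TPM in replicate 1 and 95.6% to 96.6% in the other 3 libraries. The labelled cell type was checked against its markers. All 6 T cell markers had a mean of at least 10 TPM and all 5 regulatory T cell markers at least 1 TPM, with Foxp3, the lineage-defining factor, at 115 ± 13.6 TPM (SD, n = 4) and Ikzf2 lowest at 4.59 ± 0.867. The 4 B cell markers summed to 3.19 to 4.76 TPM per library, the 5 myeloid markers to 0.0607 to 0.151 and the 3 NK cell markers to 0.146 to 0.660. Lyz2, S100a8, S100a9 and Ncr1 were at 0 in every library. Of the CD8 coreceptor genes, Cd8a had 1.19 ± 0.525 TPM and Cd8b1 23.0 ± 3.61. These are bulk samples, in which fewer cells of a type and less RNA per cell cannot be told apart.

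Nearly all members were detected, most of them at high levels. Of 61 members, 58 had a mean TPM of at least 1, while 47.9% of protein-coding genes reached this level. A mean of at least 10 TPM was reached by 55 members, against 36.6% of protein-coding genes. At least 100 TPM was reached by 41, against 9.94%, and at least 1000 TPM by 7, against 0.515%. The median of the members' mean TPM was 203, and that of protein-coding genes with at least 1 TPM was 32.6. These 61 genes together held 4.02%, 4.13%, 4.12% and 4.16% of protein-coding TPM in replicates 1 to 4, a mean of 4.11 ± 0.0586%. Elongation factors held 59.1 ± 0.376% of the members' TPM, eIF3 18.2 ± 0.249%, cap-binding and eIF4F factors 11.7 ± 0.131% and the scanning and subunit joining factors 6.77 ± 0.230%. The eIF2B subunits held 1.65 ± 0.0275%, the elongation factor modifiers and partners 1.52 ± 0.0465% and the eIF4E-binding regulators 0.977 ± 0.0370%.

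**Figure D1:**
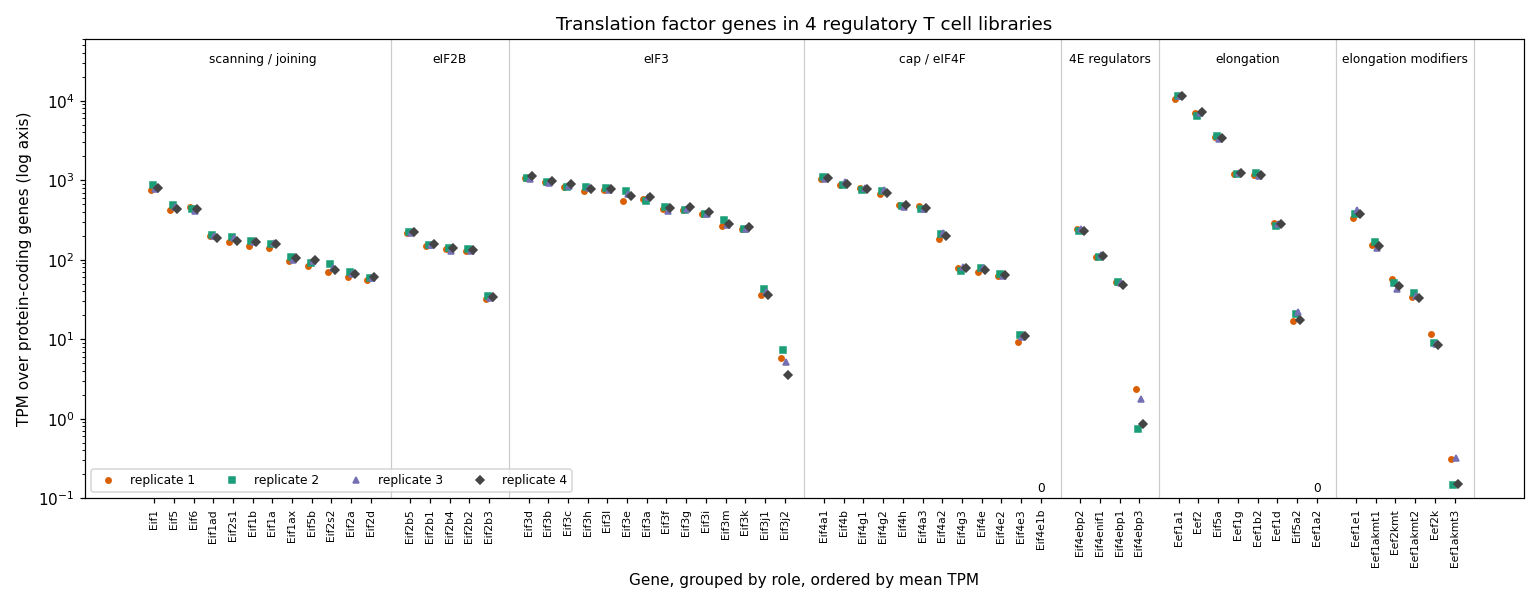
TPM over protein-coding genes (log axis) of the 61 genes in each of the 4 libraries, grouped by role and ordered by mean. The points of 1 gene lie close together beside the span between genes, from Eef1a1 at 11256 TPM to Eef1akmt3 at 0.233, and Eif4e1b and Eef1a2 are marked at 0.

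The promoters of the members were searched for a feature that the rule on names did not use. CACGTG is the canonical E-box, the hexamer that Myc and related factors recognise, and reads the same on both strands. RefSeq windows from 250 bases before to 50 after an annotated start (GRCm38.p6) were at hand for 45 of the 61 members. The hexamer was present for 12 of these 45 genes, or 26.7%, against 9.18% of protein-coding genes, 12.5% of those with at least 1 TPM and 14.5% of those with at least 100 TPM. Among members with at least 100 TPM the share was 9 of 32, or 28.1%. The median GC content of the windows was 62.7% for members, 57% for protein-coding genes and 61.7% for those with at least 100 TPM, and its part in these shares was not tested. The 12 genes were Eef2, Eef2k, Eif1b, Eif3a, Eif3f, Eif3k, Eif4a1, Eif4e, Eif4g1, Eif4h, Eif5a and Eif5a2. Their levels ran from Eef2 at 6950 TPM to Eef2k at 9.54.

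The sites below are those of all 3 core eIF4F genes, of eEF2 and its kinase, of Eif5a and of the eIF3 gene Eif3f, shown because they put the hexamer beside genes of very different level. Each is a stretch of 30 bases read 5′ to 3′ in the direction of the gene, with CACGTG in capitals. A match describes these letters in this window and does not show that a factor bound there.
Eef2: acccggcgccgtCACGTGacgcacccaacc
Eef2k: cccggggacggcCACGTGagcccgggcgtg
Eif5a: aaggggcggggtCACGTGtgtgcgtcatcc
Eif4a1: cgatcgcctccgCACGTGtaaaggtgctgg
Eif4e: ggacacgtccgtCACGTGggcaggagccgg
Eif4g1: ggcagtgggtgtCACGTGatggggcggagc
Eif3f: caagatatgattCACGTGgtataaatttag
The Eef2 stretch lies at chr10:81176576-81176605 on the plus strand, 43 bases before the annotated start, and the Eef2k stretch at chr7:120842788-120842817 on the plus strand, 31 before. The Eif5a stretch is at chr11:69921443-69921472 on the minus strand, 74 or 185 bases before 2 of its annotated starts, and a second match lies 178 before another start. The Eif4a1 stretch is at chr11:69672595-69672624 on the minus strand, 189 before the start. The Eif4e stretch is at chr3:138527192-138527221 on the plus strand, 64 before, and a second match lies 228 before. The Eif4g1 stretch is at chr16:20672661-20672690 on the plus strand, 54 before, and a second match begins at base 16, with the start base itself counted. The Eif3f stretch is at chr7:108934335-108934364 on the plus strand, 68 before. Distances are counted to the first base of the hexamer.

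Messages of many translation genes begin with a C followed by a run of pyrimidines, the terminal oligopyrimidine start through which growth signals act on their translation. A window was counted where the annotated start base was C and at least 4 pyrimidines followed. Only Eif3f among the 45 matched members had such a start, 2.22%, against 2.72% of protein-coding genes. Its run covers 11 bases, shown in capitals in the 30 bases at chr7:108934405-108934434 on the plus strand.
Eif3f: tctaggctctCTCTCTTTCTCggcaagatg
The count depends on the annotated base being the true start, which the gene counts cannot check. Matched members not counted, Eef1a1 and Eef2 among them, are therefore not shown to lack such a start.

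Elongation factors were the most abundant role. Eef1a1, which delivers aminoacyl-tRNA to the ribosome (ENSMUSG00000037742.14, mm10 chromosome 9, 78478449 to 78489151, minus strand), had the highest mean TPM of all protein-coding genes. Its TPM was 10659, 11620, 11415 and 11329 in replicates 1 to 4, with a mean of 11256 ± 416. Replicate 1 was lowest and the other 3 lay close together. Eef2, the GTPase that moves the ribosome by 1 codon (ENSMUSG00000034994.10, chromosome 10, 81176631 to 81182498, plus strand), had 7108, 6340, 7073 and 7278 TPM, with a mean of 6950 ± 416 and replicate 2 lowest. The Eef1a1 and Eef2 genes together held 44.3 ± 0.656% of the members' TPM. Eef1a1 exceeded Eef2 1.62-fold within libraries, with a range of 1.5 to 1.83 over the 4, by exon union length. By the length of the transcript with the longest coding sequence it was 2.09-fold. Without division by length the log2 ratio was 0.28 against 0.70.

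Eif5a encodes the factor that carries the amino acid hypusine and helps ribosomes past difficult stretches such as runs of proline (ENSMUSG00000078812.10, chromosome 11, 69916714 to 69921958, minus strand). Its TPM was 3450, 3558, 3276 and 3356 in replicates 1 to 4, a mean of 3410 ± 122. Its paralogue Eif5a2 had 16.9, 20.8, 21.9 and 17.7 TPM, a mean of 19.3 ± 2.38. The 2 genes were far apart in every library, with Eif5a higher by 150-fold to 204-fold by exon union length. By the length of the transcript with the longest coding sequence in place of all exons, an alternative chosen after seeing the data, the mean fold was 294 against 178, and without division by length the log2 ratio was 6.39 against 7.47.

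The exchange factor that recharges eEF1A consists of Eef1b2, Eef1d and Eef1g, of which Eef1b2 and Eef1d hold the exchange activity and Eef1g is structural. Eef1g had 1210 ± 31.0 TPM and Eef1b2 1176 ± 37.5. The ranges of these 2 over the libraries overlapped, with Eef1g above Eef1b2 in 3 of 4. By the longest-coding transcript the ranges were apart, at 1120 ± 30.1 and 1020 ± 30.8 TPM. Eef1d was lower, at 278 ± 11.3 TPM. Eef1a1 exceeded Eef1b2 9.57-fold, with a range of 9.06 to 9.99, and exceeded Eef1d 40.5 ± 3.04-fold. By the longest-coding transcript these folds were 10.2 and 27.1, and without division by length Eef1a1 exceeded Eef1d 17.1-fold. Eef1a2, the paralogue known from muscle and neurons, had no fragment in any library. With 0 counted, up to 3 fragments remain possible, equal to 0.135, 0.113, 0.106 and 0.0541 TPM in replicates 1 to 4. Eef1a1 was therefore at least 78941-fold higher than Eef1a2 in each library, by the floor of 3 fragments per library.

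The 6 modifiers and partners of elongation factors had a median mean level of 42.4 TPM, below the 1193 TPM of the elongation factors themselves. Eef1e1, a component of the complex of aminoacyl-tRNA synthetases, was highest, with 339, 375, 419 and 379 TPM and a mean of 378 ± 32.6. Eef2k, the kinase that phosphorylates and slows eEF2 (ENSMUSG00000035064.17, chromosome 7, 120842831 to 120907450, plus strand), had 11.8, 9.01, 8.83 and 8.56 TPM, a mean of 9.54 ± 1.49. Replicate 1 stood above the other 3, which lay close together. Eef2 exceeded its kinase 734-fold, with a range of 605 to 850. Among the methyltransferases of elongation factors, Eef1akmt1 had 153 ± 11 TPM, Eef2kmt 49.5 ± 5.87 and Eef1akmt2 35.3 ± 2.30. Eef1akmt3 was nearly absent, at 0.310, 0.145, 0.325 and 0.152 TPM from 9, 5, 12 and 11 fragments.

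Among the factors of the ternary complex, scanning and subunit joining, all 12 members had at least 10 TPM and 8 at least 100. Eif1, which guards the choice of the start codon (chromosome 11, 100319885 to 100322096, plus strand), was highest, with 763, 868, 766 and 796 TPM in replicates 1 to 4 and a mean of 798 ± 48.7. Its paralogue Eif1b had 163 ± 10.7 TPM, and Eif1 exceeded it 4.90-fold with a range of 4.63 to 5.18. Eif1a and Eif1ax both encode eIF1A, which works with eIF1 during scanning. Eif1a had 155 ± 10.8 TPM and the X-linked Eif1ax 103 ± 4.72, a 1.5-fold ratio with a range of 1.43 to 1.63. Without division by length this ratio turned over, to a log2 value of -0.28.

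Eif2s1 encodes eIF2 alpha, the subunit whose phosphorylation holds back initiation under stress (chromosome 12, 78861819 to 78887010, plus strand). Its TPM was 169, 192, 186 and 170 in replicates 1 to 4, a mean of 179 ± 11.6, with replicates 1 and 4 low and replicates 2 and 3 high. Eif2s2, for eIF2 beta, had 71.0, 89.3, 79.5 and 74.6 TPM, a mean of 78.6 ± 7.96. Replicate 2 was highest and replicate 1 lowest for both eIF2 genes. Eif2s1 exceeded Eif2s2 2.29-fold with a range of 2.15 to 2.38. Part of this ratio lies in the lengths used: with the length of the longest-coding transcript it was 1.25-fold.

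Eif5, the GTPase activator of eIF2, had 451 ± 29.6 TPM, and Eif5b, the GTPase of subunit joining, 93.2 ± 6.72. Eif6 keeps free large ribosomal subunits from joining small ones too early and also acts in making the large subunit (chromosome 2, 155819832 to 155826925, minus strand). It had 466, 434, 414 and 439 TPM, a mean of 438 ± 21.6, with replicate 1 highest. Eif1ad had 198 ± 8.22 TPM, and Eif2a and Eif2d, which encode factors for alternative delivery of tRNA, had 65.3 ± 3.90 and 58.5 ± 1.98. Eif2d was the lowest of this role by exon union length, with 56.1, 59.0, 58.1 and 60.9 TPM in replicates 1 to 4. Its exon union is 3.67 times its longest-coding transcript, and by the length of that transcript it had 143 TPM, above 7 of the other 11 genes, with Eif1ax lowest at 69.4.

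Genes of the exchange factor eIF2B had a median coefficient of variation (CV, the SD over the mean) of 2.43% between libraries. By TPM this was the lowest of the 7 roles. With counts set to a shared library size instead, the eIF2B genes had CVs of 3.19% to 5.06%. On that scale the eIF4E-binding regulators Eif4enif1, Eif4ebp2 and Eif4ebp1 had 2.57%, 2.58% and 4.18%. Eif2b5, the catalytic epsilon subunit, had 218, 227, 217 and 226 TPM, a mean of 222 ± 4.98. Eif2b1, the alpha subunit, followed at 150, 154, 153 and 158 TPM, with a mean of 154 ± 3.19. Below these came Eif2b4 at 136 ± 5.41 and Eif2b2 at 131 ± 3.19, whose ranges overlapped by this length but not by the longest-coding transcript, at 133 ± 5.17 and 102 ± 2.37. Eif2b3, the gamma subunit, stood apart at 32.3, 34.7, 33.4 and 34.1 TPM, a mean of 33.6 ± 1.04. Eif2b5 exceeded Eif2b3 by 6.60 ± 0.113-fold by exon union length. The exons of Eif2b3 add up to 6520 bp, 4.19 times its longest-coding transcript, and with the length of that transcript the same fold was 1.98 ± 0.0340. Eif2s1, the substrate, had 0.807 of the TPM of Eif2b5, with a range of 0.754 to 0.856, an order that turned over without division by length (log2 0.32).

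eIF3 is the largest initiation factor, and 12 of its 14 genes had at least 100 TPM. Eif3d, a subunit that can itself bind the cap of some mRNAs, was highest, with 1073, 1060, 1044 and 1116 TPM and a mean of 1073 ± 30.7. In falling order followed Eif3b at 955 ± 21.6, Eif3c at 844 ± 28.4, Eif3h at 783 ± 37.0, Eif3l at 765 ± 21.03 and Eif3e at 649 ± 80.4. Eif3a, the scaffold subunit, had 588 ± 28.6 TPM. Then came Eif3f at 442 ± 21.03, Eif3g at 435 ± 17.3, Eif3i at 379 ± 10.5, Eif3m at 286 ± 21.4 and Eif3k at 248 ± 5.74. The ranges of 4 pairs of neighbours in this order overlapped. Within libraries, Eif3c was above Eif3h in 4 of 4. Eif3h was above Eif3l in 2 of 4, Eif3e above Eif3a in 3 of 4 and Eif3f above Eif3g in 2 of 4, and these 3 pairs did not differ beyond their spread by exon union length.

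The order of the eIF3 subunits also rested on the length used. From Eif3d to Eif3k the fold was 4.33 ± 0.0848 by exon union length. By the longest-coding transcript the span narrowed to 2.46 ± 0.12, from Eif3i at 830 ± 23.6 TPM to Eif3f at 337 ± 15.6. Eif3i rose from place 10 to place 1 and Eif3k from place 12 to place 5 under this length, since their exon unions are 3.30 and 3.49 times as long as that transcript.

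**Figure D2:**
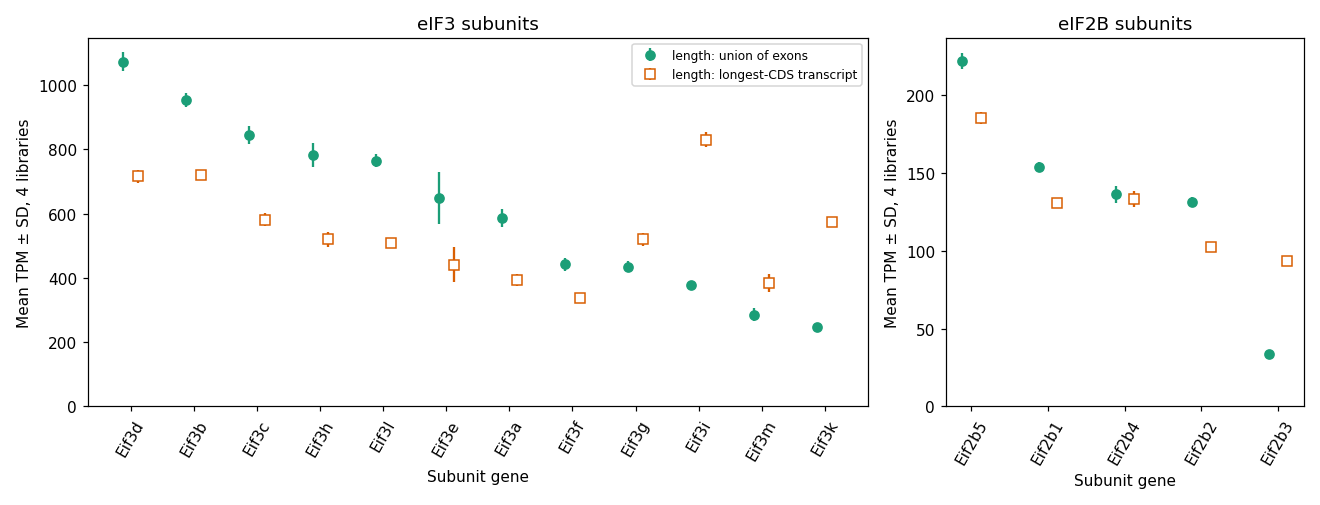
Mean TPM with SD over 4 libraries for the 12 constant eIF3 subunit genes (left) and the 5 eIF2B subunit genes (right), by exon union length (filled circles) and by the length of the transcript with the longest coding sequence (open squares). The subunits lie closer together by the second length, and Eif3i, Eif3k and Eif2b3 move most relative to their own level. Genes given equal lengths on both scales also fall, since TPM is scaled to the library's sum, as for Eif3h from 783 to 520 TPM. The transcript length was capped at the exon union, and for Eif3h the cap applied.

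Subunit j of eIF3 binds loosely and has 2 genes in the mouse. Eif3j1 had 38.9 ± 3.21 TPM, and Eif3j2 had 5.84, 7.29, 5.11 and 3.60 TPM in replicates 1 to 4, a mean of 5.46 ± 1.53. Eif3j1 exceeded Eif3j2 7.33-fold, with a range of 5.92 to 10.1. Of all 50-base stretches of the longest-coding Eif3j2 transcript, 91.9% occur in transcripts of other genes, nearly all in Eif3j1. Reads that could map to both were not counted, so the level of Eif3j2 is uncertain.

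Eif3g, which contacts the mRNA during scanning, had 423, 425, 429 and 460 TPM in replicates 1 to 4. Replicate 4 stood above the other 3. Eif3e (chromosome 15, 43250040 to 43282736, minus strand) had 548, 742, 668 and 641 TPM, lowest in replicate 1 and highest in replicate 2. Its CV of 12.4% was the largest among the eIF3 genes other than Eif3j2.

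For cap recognition, the helicase gene Eif4a1 (ENSMUSG00000059796.16, chromosome 11, 69666936 to 69672423, minus strand) was highest, with 1029, 1107, 1038 and 1054 TPM and a mean of 1057 ± 35.0. The scaffold gene Eif4g1 (ENSMUSG00000045983.15, chromosome 16, 20668313 to 20692884, plus strand) had 802, 749, 788 and 777 TPM, a mean of 779 ± 22.5. The cap-binding subunit gene Eif4e (ENSMUSG00000028156.12, chromosome 3, 138526179 to 138559696, plus strand) had only 69.6, 78.6, 77.8 and 73.9 TPM, a mean of 75.0 ± 4.11. The 3 eIF4F genes were thus unequal in every library. Eif4g1 exceeded Eif4e 10.4-fold with a range of 9.53 to 11.5, and Eif4a1 exceeded Eif4g1 1.36-fold with a range of 1.28 to 1.48. By the longest-coding transcript these folds were 11.1 and 2.59, while without division by length Eif4a1 lay below Eif4g1 (log2 -0.30).

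Eif4a2, the second eIF4A helicase gene, had 203 ± 15.5 TPM, and Eif4a3, the helicase of the exon junction complex, had 450 ± 16.7. Eif4a1 exceeded Eif4a2 5.21-fold by exon union length and 2.93-fold by the longest-coding transcript, and exceeded Eif4a3 2.35-fold and 4.08-fold. Eif4b and Eif4h, which stimulate the helicase, had 901 ± 30.3 and 478 ± 16 TPM. Eif4g2, a scaffold that lacks the eIF4E-binding region, had 716 ± 34.4 TPM, close to Eif4g1, which exceeded it 1.09-fold with a range of 1.01 to 1.18 but lay below it without division by length (log2 -0.37). Eif4g3 had 77.8 ± 4.55 TPM, 10.02-fold below Eif4g1 by exon union length and 6.14-fold below by the longest-coding transcript.

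Of the other cap-binding genes, Eif4e2 was near Eif4e and the others lower. Eif4e2, which binds the cap without supporting eIF4F and acts in repression, had 63.8 ± 2.00 TPM. Eif4e exceeded it 1.17-fold by exon union length, but by the longest-coding transcript the ratio was 0.540, so their order was not settled by these counts. Eif4e3 had 9.25, 11.2, 10.8 and 10.9 TPM, 7.13-fold below Eif4e. Eif4e1b, known from oocytes, had no fragment in any library, which allows up to 0.1248, 0.105, 0.0981 and 0.04997 TPM in replicates 1 to 4.

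The 4E-binding proteins hold eIF4E away from eIF4G until mTORC1 phosphorylates them. Eif4ebp2 was the most abundant of their genes (chromosome 10, 61428491 to 61452661, minus strand), with 245, 231, 246 and 231 TPM and a mean of 238 ± 8.38. Eif4ebp1 (chromosome 8, 27260329 to 27276674, plus strand) had 53.1, 52.2, 50.4 and 47.5 TPM, a mean of 50.8 ± 2.49, or 0.213 of Eif4ebp2. Eif4e exceeded Eif4ebp1 1.47-fold with a range of 1.31 to 1.56, while it had 0.315 of the TPM of Eif4ebp2, with a range of 0.285 to 0.340. Eif4ebp3 had 2.40, 0.741, 1.78 and 0.858 TPM, from 19, 7, 18 and 17 fragments. Its mean was 1.44 ± 0.787, and 65.5% of its 50-base stretches occur in a transcript of 1 other gene. Eif4enif1, which carries eIF4E into the nucleus and to processing bodies, had 109, 109, 113 and 113 TPM, a mean of 111 ± 2.36.

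**Figure D3:**
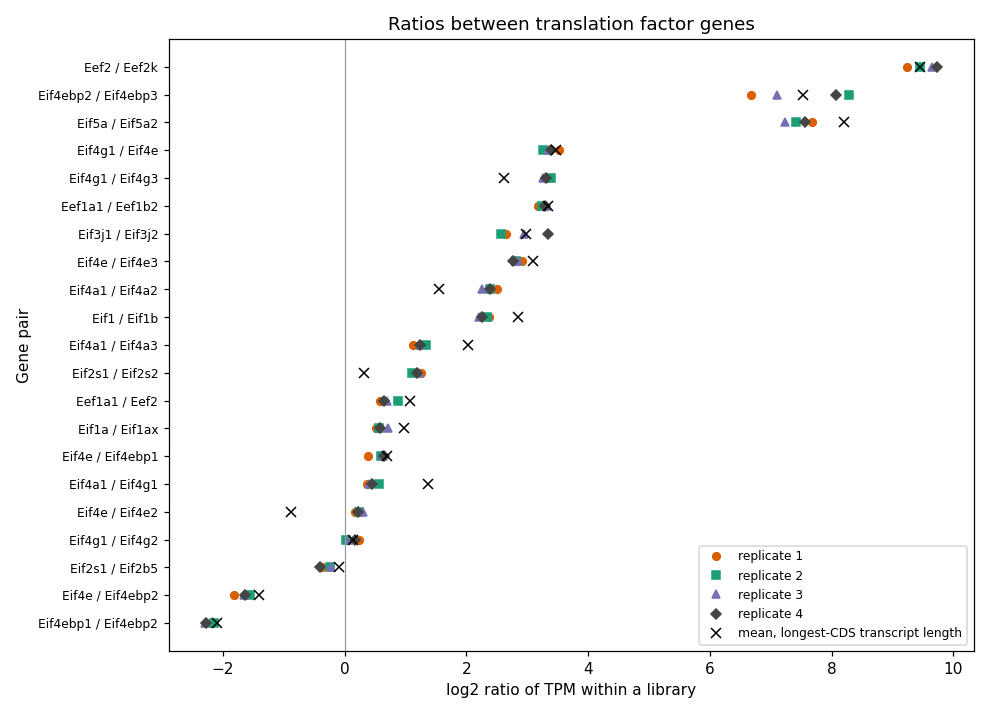
Log2 ratio of TPM within each library for 21 pairs of translation factor genes (coloured symbols, 1 per library), and the mean log2 ratio when lengths are those of the longest-coding transcripts (crosses). Most pairs keep nearly the same ratio in all 4 libraries, Eif4ebp2 over Eif4ebp3 spreads most, and the cross lies on the other side of 0 for Eif4e over Eif4e2.

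Over the 21 pairs, the SD of the log2 ratio between libraries ran from 0.05 for Eif4g1 over Eif4g3 to 0.77 for Eif4ebp2 over Eif4ebp3. With 4 libraries, a two-sided sign-flip test of a ratio, enumerated exactly, cannot reach 0.05, so these are values with their spread and no p.

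Variation of the members between libraries was compared with that of all genes. None of the 57 members tested varied beyond genes of like abundance by edgeR's quasi-likelihood dispersion test with Benjamini-Hochberg adjustment at 0.05, while 58 of 12396 genes, 0.468%, were called. A share this small makes 0 calls likely for any 57 genes, so this result does not set the members apart. Eef1a2, Eif4e1b, Eef1akmt3 and Eif4ebp3 had too few fragments to be tested. At an unadjusted p under 0.05 there were 2 members, 3.51%, against 5.33% of all genes tested. Without replicate 2 there were 6 members, 10.5%, against 5.75%, so on which side of the background they lie rests on that library. By DESeq2, 0 members were dispersion outliers, against 0.557% of genes. The 2 members, named after their values were seen, were Eif3e and Eif2s2. Eif3e had an edgeR p of 0.00649 and an adjusted p of 0.55, and Eif2s2 a p of 0.0425 and an adjusted p of 0.92. Both were lowest in replicate 1 and highest in replicate 2, and 22.0% and 27.8% of the 50-base stretches of their longest-coding transcripts also occur in other genes.

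CVs of the members were mostly under 10%. Among those with at least 1 TPM the median CV was 4.74%, against 7.09% for protein-coding genes at that level. With at least 100 TPM the medians were 3.97% and 4.98%. On the scale of the test, the median quasi-dispersion over its prior was 0.809 for members and 0.809 for all genes tested, a scale on which genes are set against others of like abundance. Of the 58 members, 34 had a CV of at most 5% and 7 had one above 10%. These cut-offs were not counted over all protein-coding genes, so the counts do not set the members apart. The smallest CVs of members were 2.08% for Eif2b1, 2.13% for Eif4enif1 and 2.25% for Eif2b5. The largest were 54.5% for Eif4ebp3, 28.1% for Eif3j2 and 15.6% for Eef2k. Eif4ebp3 rested on 7 to 19 fragments per library and Eif3j2 on 148 to 228, while Eef2k had 847 to 1689.

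**Figure D4:**
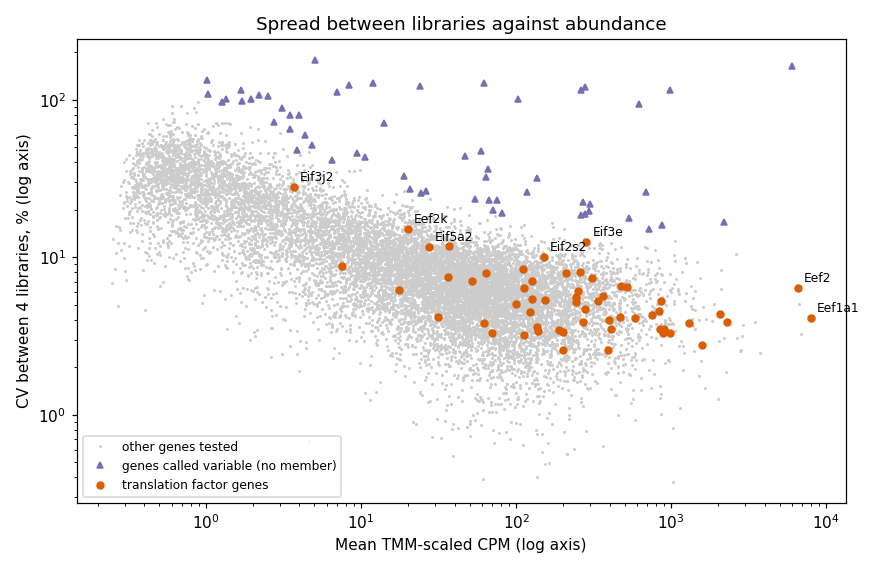
CV between 4 libraries (log axis, percent) against mean TMM-scaled CPM (log axis) for 57 translation factor genes (orange), genes called variable (purple triangles) and the other genes tested (grey). The translation factor genes lie within the grey cloud, and no member is among the 58 called genes.

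Replicate 1 was the library in which most members were lowest. By TMM-scaled CPM, counts set to a shared library size, replicate 1 was the lowest for 29 of 57 members and the highest for 8, with a median log2 deviation of -0.04 from each gene's mean. Replicate 2 was the highest for 26 and the lowest for 8, with a median of 0.04. Replicate 3 was the lowest for 15 and the highest for 7, and replicate 4 the highest for 16 and the lowest for 5. How often each library was highest or lowest was not counted over all genes, so these counts have no background to stand against. Over all genes tested, the medians of the 4 libraries were between -0.0054 and -0.00055. Protein-coding genes held the smallest share of all-feature TPM in replicate 1, and its part in the shift was not tested.

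**Figure D5:**
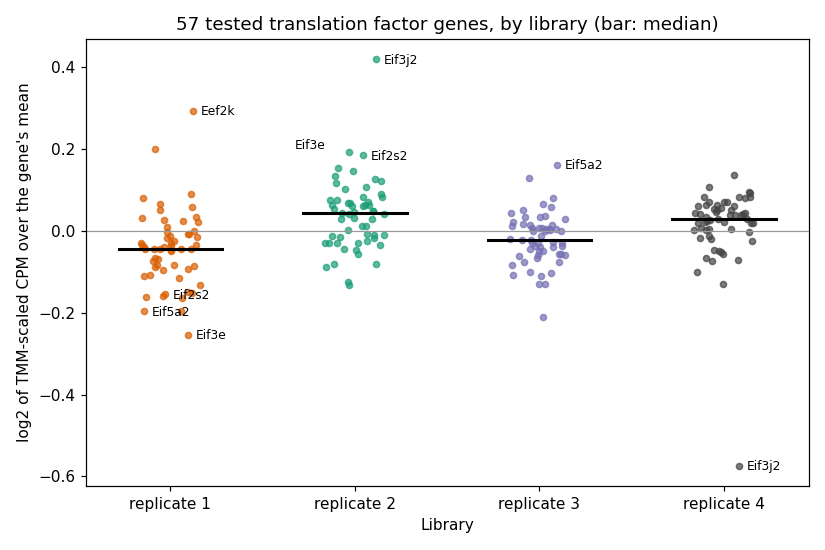
Log2 of TMM-scaled CPM over the gene's own mean for 57 translation factor genes in each library, with the median as a bar. The medians lie at -0.04, 0.04, -0.02 and 0.03 in replicates 1 to 4, and Eif3j2, Eef2k and Eif3e lie farthest out.

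Near-identical copies limit some levels, since reads that map to several places were not counted. For 27 of the 61 members no 50-base stretch of the longest-coding transcript occurs in another gene, for 15 at least 10% do, and for 5 at least 50% do. These 5 were Eif3j2, Eif4ebp3, Eif4a1 at 65.3%, Eef1g at 64.3% and Eef1a1 at 59.2%. The stretches of Eef1a1 recur in 20 other genes, and those of Eif4a1 mostly in the pseudogene Eif4a-ps4. Of the eIF3 subunits set in order, Eif3m shared most, at 37.3%, followed by Eif3h at 26.2% and Eif3e at 22.0%, so their places may be too low. The levels of these genes may be underestimates by an amount that the counts do not give.

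The members lie on 19 chromosomes, with 6 each on chromosomes 7 and 15. Only 2 pairs of members on the same chromosome lie within 500 kb: Eif4a1 and Eif5a on chromosome 11, 244 kb apart, and Eif2b5 and Eif4g1 on chromosome 16, 158 kb apart.

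Other genes of translation, listed by role and not by response, were also detected almost throughout. Of 33 other translation factors and regulators, 32 had at least 1 TPM and 10 at least 100, and 0 were called variable by edgeR, with 1, Dohh, at an unadjusted p under 0.05. Pabpc1, the poly(A)-binding protein that joins the tail to eIF4G, had 1132 ± 31.5 TPM, and Mknk2, a kinase of eIF4E, had 733 ± 50.8. Gspt2, a paralogue of the release factor gene Gspt1, was the only one under 1 TPM, at 0.390 ± 0.167. All 9 mitochondrial translation factors had at least 10 TPM, 0 were called and 0 had an unadjusted edgeR p under 0.05. Of all genes tested, 0.468% were called and 5.33% had such a p, so these counts do not set either list apart. Tufm, the mitochondrial counterpart of eEF1A, had 210 ± 14.02 TPM and Gfm1, that of eEF2, 123 ± 7.03.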

How the data were processed

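Per the file headers, the authors ran featureCounts 1.4.6-p4 with strand setting 2 over exons of GENCODE mouse release 13, and deposited raw counts of fragments per gene. No aligner is given in the sources used here. Reads mapping to several places or overlapping several genes were not counted, per the options in the file headers. Names and types came from GENCODE release 21 by gene ID (50376 of 50600 matched), and coordinates are mm10, counted from 1.

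TPM was computed from the counts and the deposited exon lengths over protein-coding genes. Lengths of the longest-coding transcripts came from GENCODE release 21 and were capped at the deposited exon length. The test of variation used edgeR 4.0.16 under R 4.3.3 (low counts removed by filterByExpr, TMM, robust intercept-only quasi-likelihood fit, upper tail of each gene's dispersion over its prior, Benjamini-Hochberg at 0.05) and with DESeq2 1.42.0, and the script was tested on simulated data. Floors of 3 fragments cover counting error only. The members and lists were chosen with earlier results of these data known. Every member is named. All 4 values are given for the highest and lowest detected gene of each role, a fixed panel, the smallest and largest CVs, and genes with a library apart. Alternatives were other scalings, filters, lengths and pseudocounts, and leaving out each library. Protein sequences were not used here.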

Additional observations from a re-analysis of the deposited data

Results flagged for a closer look

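For 2 members, 1 library lay far from the other 3 by Dixon's criterion for 4 samples, among 80 sets of values checked. Chance alone would do this for about 1 set in 20. Eef2k, the kinase of eEF2, was at 11.75 TPM in replicate 1, above the 8.56 to 9.01 of the others. Eif3g was at 460.2 TPM in replicate 4, above the 423 to 429 of the others. Neither gene was called variable by edgeR.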

How the results depend on the processing

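No member was called variable under any alternative run: other size factors, no filter on low counts, a non-robust prior, DESeq2, and each library left out in turn. The share of all genes called was small in each run, so the lack of calls does not set the members apart. At an unadjusted edgeR p under 0.05 there were 2 members under every scaling, filter and prior. These were 3.39% to 3.51% of the members tested, against 4.44% to 5.37% of all genes tested. With 1 library left out there were 2 to 6, the 6 being without replicate 2, at 10.5% against 5.75%. Without replicate 1, 3 or 4 the members' share was 3.51% to 5.26%, against 5.42% to 5.58%. Over all genes the count of calls moved from 58 to 110 without the filter, to 36 with a non-robust prior and to 37 without replicate 1. From 57 to 58 members had at least 1 TPM under every alternative. The members' share of 4.11% became 3.87% of all-feature TPM, 3.695% of counts not divided by length, 3.79% by longest-coding transcript length and 2.98% without Eef1a1, and was 4.09% to 4.14% with 1 library left out. The median log2(TPM + 1) of 7.67 became 7.58 over all features, 5.86 as FPKM, 7.85 for members with at least 1 TPM and 7.44 by the longest-coding transcript, and was 7.64 to 7.72 with 1 library left out. Folds between the highest and lowest subunit became 4.80 by counts and 2.46 by the longest-coding transcript for eIF3 (4.30 to 4.37 with 1 library left out), 3.25 and 1.98 for eIF2B (6.55 to 6.63), and 17.1 and 27.1 for eEF1 (39.3 to 41.8). Of 21 log2 ratios, 5 turned over without division by length: Eif1a over Eif1ax to -0.28, Eif4e over Eif4e2 to -0.089, Eif4g1 over Eif4g2 to -0.37, Eif4a1 over Eif4g1 to -0.30 and Eif2s1 over Eif2b5 to 0.32. A further 10 moved by over 1.5 times without division by length, on the log2 scale: Eef2 over Eef2k to 8.36, Eif1 over Eif1b to 3.19, Eif3j1 over Eif3j2 to 4.17, Eif4a1 over Eif4a3 to 2.26, Eif4e over Eif4e3 to 4.09, Eif4e over Eif4ebp1 to 2.01, Eif4ebp1 over Eif4ebp2 to -3.63, Eif4ebp2 over Eif4ebp3 to 10.49, Eif4g1 over Eif4g3 to 2.71 and Eif5a over Eif5a2 to 6.39. By the longest-coding transcript, a length chosen after seeing the data, 1 of the 21 turned over, Eif4e over Eif4e2 at -0.89. A further 15 moved by more than their SD between libraries, in both directions, and 5 stayed within it. Among those that moved, Eif1 over Eif1b rose from a log2 of 2.29 to 2.84. Eif1a over Eif1ax rose from 0.59 to 0.97, while Eif4a1 over Eif4a2 fell from 2.38 to 1.55. Changes of length act here by their own construction. No paired analysis was possible because the samples form 1 group. Depth limits Eif4ebp3 and Eef1akmt3, with under 20 fragments per library, and the 2 members at 0.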
